A study of Mus musculus with 16 samples.

Results

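The miR-17-92 cluster was followed across early mouse blood formation through its 6 mature members, annotated on the array as mmu-miR-17, mmu-miR-18a, mmu-miR-19a, mmu-miR-20a, mmu-miR-19b and mmu-miR-92a and written below without the species prefix. Members were taken by name alone, as every non-control probe whose annotated miR was one of these, which gave 6 of the 577 miRs and 12 of the 1712 probes on the array. The question was whether the members changed together over the 6 populations or one by one.

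RNA came from sorted bone marrow cells of young adult female C57Bl/6 mice without transgene or treatment, and each replicate sample pooled several mice. LT-HSC (1 array), ST-HSC and MPP (3 arrays each) made up the HSC subsets, which were sorted together. CMP, GMP and MEP (3 arrays each) made up the myeloid progenitors, which came from a separate sort, so that side and sort cannot be told apart. Each of the 16 samples was hybridised to a one-colour Agilent mouse miR array, and with bulk RNA a smaller amount per cell and fewer cells holding a miR cannot be told apart.

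All members of the cluster are cut as hairpins from a single primary transcript, the host RNA Mir17hg, whose transcription is driven by Myc among other factors. They therefore share a promoter, whereas each hairpin is processed, and each mature miR loaded and degraded, on its own. The cluster is best known as an oncogene in B cell lymphoma and for its requirement in B cell development, and it acts through seeds that fall into a few families, each with its own set of target mRNAs.

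The mature sequences are shown first because the seed decides which targets a member can bind, and because near-identical members and paralogs bear on what a probe can tell apart. They are printed in genomic order, 5′ to 3′, from RefSeq (GRCm38.p6), with the seed (bases 2 to 8) in capitals:
miR-17: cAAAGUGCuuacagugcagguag
miR-18a: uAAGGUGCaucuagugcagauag
miR-19a: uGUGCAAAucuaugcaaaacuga
miR-20a: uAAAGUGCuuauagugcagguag
miR-19b: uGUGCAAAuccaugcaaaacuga
miR-92a: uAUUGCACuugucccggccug

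MiR-17 and miR-20a share a seed, as do miR-19a and miR-19b, while miR-18a and miR-92a each have a seed of their own within the cluster. MiR-19a and miR-19b differ by the single substitution U11C, counted from the 5′ end with the miR-19a base first. MiR-17 and miR-20a differ by C1U and C12U, with the miR-17 base first. The 6 hairpins lie within 836 bases on the plus strand of chromosome 14 (GRCm38.p6 chr14:115043671-115044506), from Mir17 at the 5′ end to Mir92-1 at the 3′ end, in a non-coding RNA gene. Mature miR-19b and miR-92a are also made from identical second copies on chromosome X, at chrX:52741991-52742013 and chrX:52741854-52741874 on the minus strand, so an array cannot assign their signal to 1 locus.

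Each member had 2 probes of 10 spots, with mm9 positions in the array's annotation. The probes of a member shared their outer end, and the spacing of these ends from member to member equalled the spacing of the mature 3′ ends in all 5 intervals, so the probes are read here as covering the 3′ part of each miR. Their lengths ran from 13 and 14 bases for miR-17 to 20 and 21 bases for miR-19a. The near-identical cases are printed with the bases under the longer probe of the first-named miR in capitals:
miR-17: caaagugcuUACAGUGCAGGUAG
miR-106a: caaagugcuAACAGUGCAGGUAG
miR-20a (under the miR-17 probe): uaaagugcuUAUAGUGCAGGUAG
miR-20a: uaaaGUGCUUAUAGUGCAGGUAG
miR-20b: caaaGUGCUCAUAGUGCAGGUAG
miR-19a: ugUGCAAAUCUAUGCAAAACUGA
miR-19b: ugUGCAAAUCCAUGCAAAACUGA

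MiR-106a, from the paralog cluster on chromosome X, differed from miR-17 at 1 of the 14 bases under the longer probe and at 0 of the 13 under the shorter one. MiR-20a itself differed from miR-17 at 1 of these 14 bases, and miR-17 from miR-20a at 1 of the 19 under the miR-20a probe. MiR-20b differed from miR-20a at 1 of 19 bases, and miR-19b from miR-19a at 1 of 21. Signals of these miRs are therefore uncertain to the extent that a probe binds the near-identical miR, which was not tested.

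All 12 probes were well above background on all 16 arrays and none had a saturated spot. Levels below are log2 signals after quantile normalization, taken from the brighter probe, and they can be compared between populations but not between miRs. The total signal of an array was lowest for LT-HSC, at 34810 units, and highest for GMP 2, at 335064. Arrays lay on 3 slides: the first 2 arrays of each myeloid progenitor were on slide 1, replicate 3 of each shared slide 2 with LT-HSC 1 and ST-HSC 1, and MPP with ST-HSC 2 and 3 took slide 3. Slide 1 was brighter (median foreground 51.5 to 58, against 31.5 to 37 on the others) and was read on another scanner model, and slide 2 alone held both HSC subsets and myeloid progenitors. With slide as a block, the difference between the sides is therefore linked only through the 2 HSC and 3 myeloid arrays of slide 2. It is not a check separate from slide 2 alone, and its p-value takes the spread from all 16 arrays. Marker miRs followed the labels for GMP (miR-223) and MEP (miR-144, miR-451 and miR-486), and 3 of the 4 HSC markers (miR-125b-5p, miR-99a and let-7e) had a higher mean in each HSC subset than in each myeloid progenitor, whereas miR-126-3p averaged 7.20 in ST-HSC against 7.37 in CMP. The lymphocyte miR-150 summed to 136 to 157 signal units on the MPP arrays and to at most 68.2 on the others. After normalization it averaged 7.20 in MPP, read 5.97 on the LT-HSC array and averaged less elsewhere. Of the non-blood miRs miR-122 was well above background on 0 arrays and miR-124, miR-1 and miR-9 on 1 or 2. The LT-HSC array departed from its label in the MEP markers. Its 3 MEP markers summed to 2387 signal units, against 41.7 to 308 on the ST-HSC and MPP arrays and 4044 to 6187 on the MEP arrays. Such sums, also that of miR-150, were not scaled for total signal, which was 89579 to 221677 units on the MEP arrays. They therefore do not give the share of an array's signal. After normalization LT-HSC read 11.15 for miR-451, 6.34 for miR-486 and 5.29 for miR-144. The MEP means were 12.12, 7.74 and 9.25, and the ST-HSC means 7.44, 2.92 and 2.59. The part of this in any LT-HSC value was not tested. LT-HSC had this array alone, whose spread was taken to be that of the other populations, and values without it are given where it changes a call.

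**Figure D1:**
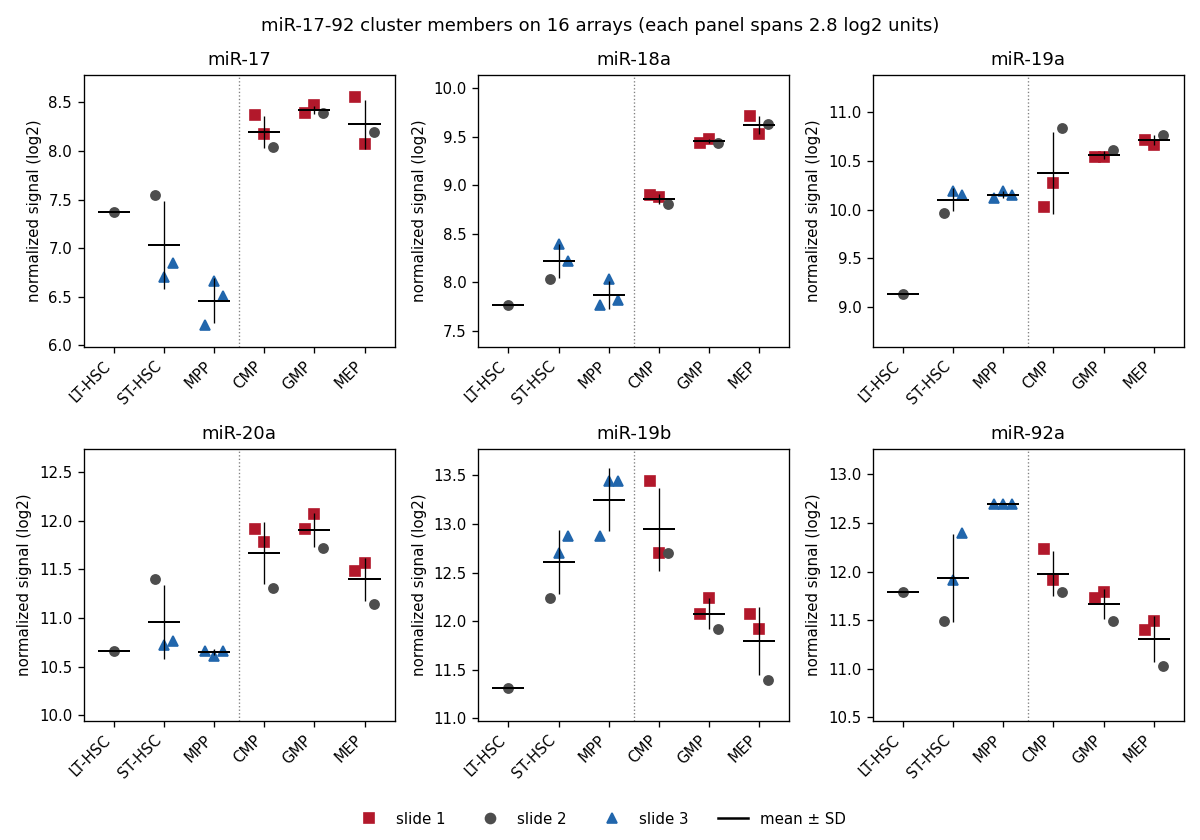
Normalized log2 signal of each cluster member (y axis) on the 16 arrays by population (x axis), with symbols for the slide and lines for the mean and SD. MiR-17 and miR-18a lay lower on every HSC array than on every myeloid array, whereas miR-92a was highest in MPP, with all 3 arrays at 12.70.

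The signals of the members did not change as a block, although those of miR-19b and miR-92a cannot be assigned to this locus alone. Between HSC subsets and myeloid progenitors 4 members were lower in HSC subsets (miR-17, miR-18a, miR-19a and miR-20a), 1 was higher (miR-92a) and 1 was not called (miR-19b), by limma with Benjamini-Hochberg adjustment over all 237 miRs tested. Of all tested miRs 48.1% were called, 22.8% lower and 25.3% higher. The median difference was -0.83 over the members and 0.06 over all tested miRs. All 6 members differed between populations in the moderated F-test, which called 82.7% of all tested miRs, so that count alone sets the members apart from nothing. On slide 2 alone limma called 0 of the 6 members and 0 of all 237 miRs after adjustment, with 1 member (miR-18a) and 11 of all miRs at an unadjusted p under 0.05.

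MiR-17 and miR-20a carry the seed best known for restraining cell cycle inhibitors and the pro-apoptotic Bim. MiR-17 read 7.37 on the LT-HSC array, 7.55, 6.70 and 6.84 on the ST-HSC arrays and 6.21, 6.66 and 6.51 on the MPP arrays. It read 8.37, 8.17 and 8.04 in CMP, 8.40, 8.47 and 8.40 in GMP and 8.56, 8.08 and 8.19 in MEP. No HSC array reached the lowest myeloid array, a separation that 2.95% of all tested miRs showed in this direction. The difference was -1.34 (95% CI -1.69 to -1.0, limma adjusted p = 1.53e-05), or 2.54-fold lower in HSC subsets. Levels ran GMP, MEP, CMP, LT-HSC, ST-HSC and MPP from high to low, and no pair of neighbours in this order differed after adjustment. With slide as a block in the model the difference was -0.83 (limma adjusted p = 0.00391), and on slide 2 alone it was -0.75 (95% CI -1.85 to 0.35).

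MiR-20a, with the same seed, gave a smaller difference, but the change of its ratio to miR-17 was not called (limma adjusted p over all pairs = 0.0680). It read 10.66 on the LT-HSC array, 11.40, 10.72 and 10.77 in ST-HSC and 10.66, 10.61 and 10.66 in MPP. It read 11.92, 11.79 and 11.31 in CMP, 11.92, 12.07 and 11.73 in GMP and 11.49, 11.57 and 11.15 in MEP. ST-HSC 1 stood above the other HSC arrays and overlapped the 2 lowest myeloid arrays, CMP 3 and MEP 3, which shared its slide. The difference was -0.90 (95% CI -1.24 to -0.57, limma adjusted p = 0.000472), and no neighbours in the order GMP, CMP, MEP, ST-HSC, LT-HSC and MPP differed. The call was lost with slide as a block, where the difference was -0.27 (limma adjusted p = 0.0963), and on slide 2 alone it was -0.36 (95% CI -1.62 to 0.89).

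MiR-18a, whose known targets include the matrix protein gene Ctgf, parted the sides without overlap. It read 7.76 in LT-HSC, 8.04, 8.40 and 8.22 in ST-HSC and 7.76, 8.04 and 7.81 in MPP. It read 8.90, 8.88 and 8.80 in CMP, 9.44, 9.48 and 9.44 in GMP and 9.71, 9.52 and 9.62 in MEP. The HSC arrays all lay below the myeloid arrays, and within the myeloid progenitors CMP lay below GMP and MEP, an order that turned with the scaling (CMP minus MEP 0.074 without normalization, GMP minus MEP 0.82 with the 75th percentile of all probes). The difference between the sides was -1.36 (95% CI -1.60 to -1.12, limma adjusted p = 5.26e-07), or 2.56-fold. Down the order MEP, GMP, CMP, ST-HSC, MPP and LT-HSC, GMP exceeded CMP by 0.59 (limma adjusted p = 0.0466, and 0.0609 with replicate number as a block) and CMP exceeded ST-HSC by 0.64 (adjusted p = 0.0216), and the other neighbours did not differ after adjustment. It was -1.49 with slide as a block (limma adjusted p = 6.81e-06) and -1.39 on slide 2 alone (95% CI -2.63 to -0.15, limma adjusted p = 0.810).

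MiR-19a and miR-19b share a seed and are regarded as the cluster's main oncogenic members in lymphoma. MiR-19a read 9.14 in LT-HSC, 9.97, 10.19 and 10.15 in ST-HSC and 10.12, 10.19 and 10.15 in MPP. It read 10.02, 10.27 and 10.84 in CMP, 10.54, 10.54 and 10.61 in GMP and 10.72, 10.66 and 10.77 in MEP. The LT-HSC array was the lowest, and CMP spread over the levels of both sides. The difference was -0.76 (95% CI -1.05 to -0.46, limma adjusted p = 0.000616) and was -0.42 without the LT-HSC array (adjusted p = 0.0138), where the F-test over populations no longer called miR-19a (adjusted p = 0.0520). ST-HSC exceeded LT-HSC by 0.97 (limma adjusted p = 0.0275), the only neighbours that differed. With slide as a block the difference between the sides was -1.06 (limma adjusted p = 0.000524), and on slide 2 alone -1.19 (95% CI -2.41 to 0.03).

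MiR-19b did not follow miR-19a. It read 11.31 in LT-HSC, 12.24, 12.70 and 12.88 in ST-HSC and 12.88, 13.44 and 13.44 in MPP. It read 13.44, 12.70 and 12.70 in CMP, 12.07, 12.24 and 11.92 in GMP and 12.07, 11.92 and 11.40 in MEP. Its highest arrays were thus in MPP and CMP, on either side of the split, and its lowest were LT-HSC and MEP 3. The difference between the sides was 0.12 (95% CI -0.28 to 0.52, limma adjusted p = 0.642), yet miR-19b differed between populations in the F-test (limma adjusted p = 0.000918). It was 0.65 higher in HSC subsets once the LT-HSC array was left out (limma adjusted p = 0.00708), and 0.47 with slide as a block as well (adjusted p = 0.234). On all arrays it was 0.08 with the slide block (limma adjusted p = 0.811) and -0.23 on slide 2 alone.

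MiR-92a, known for restraining integrin alpha 5 in vessel growth, was the one member called higher in HSC subsets. It read 11.79 in LT-HSC, 11.49, 11.92 and 12.39 in ST-HSC and 12.70 on all 3 MPP arrays, where it held the same rank and so received the same normalized value. It read 12.24, 11.92 and 11.79 in CMP, 11.73, 11.79 and 11.49 in GMP and 11.40, 11.49 and 11.03 in MEP. MPP stood above every other array, as it did in the summed signal of miR-150, whose part in this was not tested, LT-HSC and ST-HSC overlapped the myeloid progenitors, and MPP exceeded its neighbour CMP by 0.72 (limma adjusted p = 0.0316). The difference between the sides was 0.49 (95% CI 0.15 to 0.83, limma adjusted p = 0.0221). It was 0.33 with slide as a block (limma adjusted p = 0.123), 0.20 on slide 2 alone, and -0.16 when arrays were scaled to the 75th percentile of all probes (limma adjusted p = 0.595), so neither call nor direction held.

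**Figure D2:**
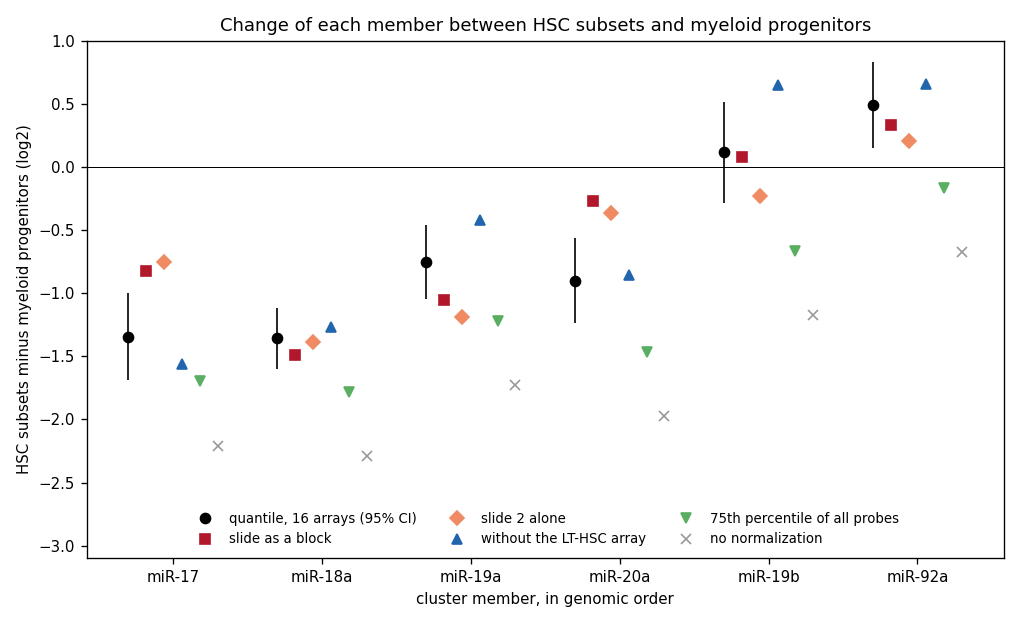
Difference between HSC subsets and myeloid progenitors on the log2 scale (y axis) for each member in genomic order (x axis), with the 95% CI for the 16 arrays after quantile normalization and points for 5 alternatives. MiR-17, miR-18a, miR-19a and miR-20a lay below 0 in all of them, whereas miR-19b and miR-92a changed sign with the scaling.

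Scaling between arrays moved the level of every member. The median over all tested miRs was 0.06 after quantile normalization, 0.40 when scaled to the 75th percentile of probes detected on every array (well above background), -0.13 with that of all probes, and -0.60 without normalization. Beside these medians miR-19b read -0.11, -0.66 and -1.17 under the other 3 scalings and miR-92a 0.39, -0.16 and -0.68. All miRs called higher and lower in HSC subsets numbered 60 and 54 after quantile normalization, 89 and 29, 43 and 59, and 15 and 62 under the other 3 in the same order. Directions of single members are thus relative to the scaling, which the ratios below are not, apart from quantile normalization itself.

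Over the 15 pairs of populations limma called members in 45 of 90 comparisons, against 38.3% of the comparisons of all tested miRs. The comparisons shared arrays, so these counts are not independent of each other. MPP and MEP differed in all 6 members. MPP shared no slide with any myeloid progenitor, so population and slide are linked here only through the ST-HSC arrays. MiR-19b (1.46, limma adjusted p = 0.000397) and miR-92a (1.39, adjusted p = 0.000159) were higher in MPP, and miR-17 (-1.81), miR-18a (-1.75), miR-20a (-0.75) and miR-19a (-0.56) were lower there, beside calls for 71.3% of all tested miRs. The direction of miR-19a in this pair turned with the scaling, to 0.011 with the 75th percentile of all probes and 0.093 without normalization, and that of miR-20a turned with slide as a block, to 0.17. MPP against GMP gave calls in the same members apart from miR-19a, beside 42.6% of all tested miRs. MPP against CMP gave 4 (miR-92a higher and miR-17, miR-18a and miR-20a lower in MPP) beside 32.9%.

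ST-HSC against MEP gave 5 (miR-19b and miR-92a higher, miR-17, miR-18a and miR-19a lower in ST-HSC) beside 59.9%, ST-HSC against GMP 3 (miR-17, miR-18a and miR-20a lower) beside 36.7%, and ST-HSC against CMP 2 (miR-17 and miR-18a lower) beside 17.7%.

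MiR-18a was called in every comparison of an HSC subset with a myeloid progenitor. The LT-HSC array was lower than CMP in 4 members (miR-18a, miR-19a, miR-20a and miR-19b) beside calls for 42.2% of all tested miRs. It was lower than GMP in 4 (miR-17, miR-18a, miR-19a and miR-20a) beside 42.6%, than MEP in 2 (miR-18a and miR-19a) beside 27.8%, and than ST-HSC in 2 (miR-19a and miR-19b) beside 22.8%. Against MPP 4 members were called, beside 38.8%. MiR-17 was higher in LT-HSC (0.91, limma adjusted p = 0.0482), a direction that turned to -1.30 without normalization, and miR-19b (-1.94), miR-19a (-1.02) and miR-92a (-0.91) were lower.

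Among the myeloid progenitors CMP against GMP gave 1 call, miR-18a, beside 7.59%.

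Neither ST-HSC against MPP nor GMP against MEP gave a call for any member after adjustment, beside 4.64% and 62.9% of all tested miRs. At an unadjusted limma p under 0.05 these comparisons held 3 members (miR-17, miR-19b and miR-92a) and 1 member (miR-20a). MiR-92a gave the lowest unadjusted p of these, with a difference of -0.76 for ST-HSC minus MPP (95% CI -1.28 to -0.25, limma adjusted p = 0.0907). In GMP against MEP the intervals still allowed differences of up to 1.01 (miR-20a), and with the 75th percentile of all probes miR-18a (0.82, limma adjusted p = 0.0204) and miR-19a (0.80, adjusted p = 0.0100) were called higher in GMP.

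Whether members moved together was then asked of their ratios within an array, in which the array's scaling cancels. The log2 ratio was taken for every pair of the 237 tested miRs, 27966 pairs, and fitted as a single table. Of the 15 member pairs, 9 changed between HSC subsets and myeloid progenitors, beside 48.5% of all pairs, and 11 changed between populations in the F-test, beside 83.6%. Among pairs of the 105 miRs detected in this way on every array 46.3% changed between the sides. The SD of the log2 ratio over the 16 arrays had a median of 0.78 for member pairs and 1.10 for pairs of those 105 miRs, as a description. Quantile normalization, which moves bright and dim probes unequally, does not cancel, so ratios under the other scalings are given for the pairs called between the sides.

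The 9 changed pairs were the 8 ratios of miR-17, miR-18a, miR-19a or miR-20a to miR-19b or miR-92a, and the ratio of miR-18a to miR-19a. Both denominators of the 8 are also made from chromosome X, and the part of those copies in the ratios was not tested. MiR-18a to miR-92a changed most, by -1.85 (95% CI -2.27 to -1.42, limma adjusted p over all pairs = 5.48e-06), or 3.60-fold. Centred on its mean over the 16 arrays, this ratio was -0.85 in LT-HSC, -0.28, -0.35 and -1.0 in ST-HSC and -1.76, -1.49 and -1.72 in MPP. It was -0.17, 0.13 and 0.18 in CMP, 0.88, 0.86 and 1.12 in GMP and 1.48, 1.21 and 1.76 in MEP. The sides did not overlap, and each of MPP, CMP, GMP and MEP lay apart from the others. The change was -1.82 with slide as a block (limma adjusted p = 0.000123) and -1.62 under each of the 3 other scalings. On slide 2 alone it was -1.59 and not called (limma adjusted p = 0.790). There 0 of the 15 member pairs had an unadjusted limma p under 0.05, beside 1953 of all 27966 pairs.

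MiR-18a to miR-19b changed by -1.48 (limma adjusted p = 6.71e-05), miR-17 to miR-92a by -1.83 (adjusted p = 5.33e-05) and miR-17 to miR-19b by -1.46 (adjusted p = 0.000265), or by -2.21 without the LT-HSC array. Under each of the 3 other scalings the changes were smaller, at -1.12, -1.54 and -1.04 in the same order, and still called. The ratio of miR-17 to miR-92a also did not overlap between the sides, which made 2 of 15 member pairs beside 6.94% of all pairs. Within the miR-19 seed, miR-19a to miR-19b changed by -0.87 (95% CI -1.43 to -0.32, limma adjusted p = 0.0127), by -1.14 with the slide block (limma adjusted p = 0.0144), and by -0.56 under each of the 3 other scalings, where it was still called. MiR-20a to miR-19b changed by -1.02 (limma adjusted p = 0.00323), which with slide as a block was -0.35 (adjusted p = 0.320). MiR-20a to miR-92a changed by -1.39, by -0.61 with the block (limma adjusted p = 0.0355) and by -0.37 with the block and without the LT-HSC array, where it was not called (adjusted p = 0.280). Under the 3 other scalings miR-20a to miR-19b was -0.80 and miR-20a to miR-92a -1.30, both still called. MiR-19a to miR-92a changed by -1.24 (limma adjusted p = 0.000640), and by -1.06 under the 3 other scalings, where it was called. The ratio of miR-18a to miR-19a was not called with the block (-0.43, limma adjusted p = 0.168). It changed by -0.60 in the main analysis and by -0.56 under the 3 other scalings, called in each.

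**Figure D3:**
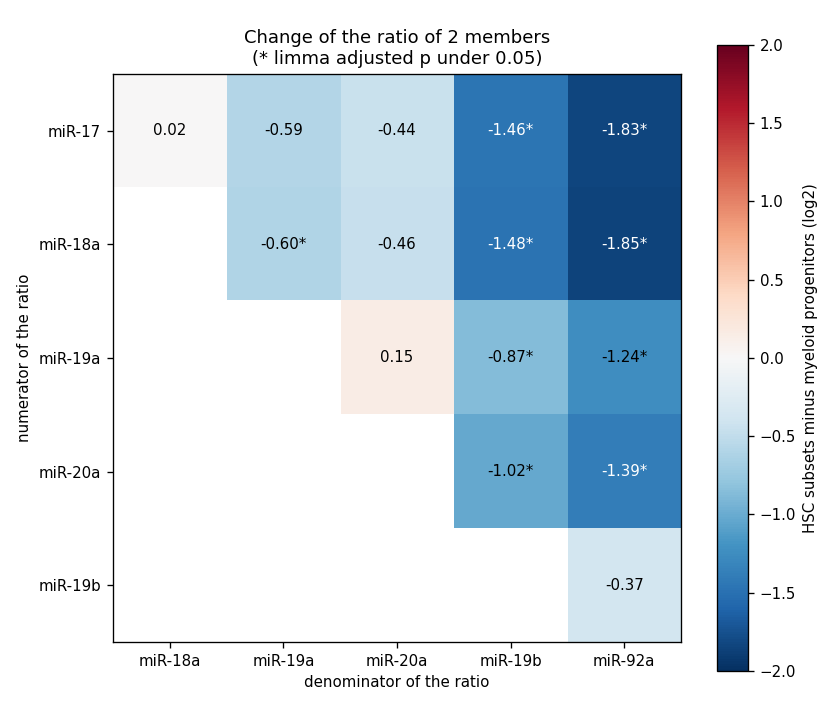
Change of the log2 ratio of each pair of members between HSC subsets and myeloid progenitors, with the numerator in rows and the denominator in columns. An asterisk marks a limma adjusted p under 0.05 over all 27966 pairs; the last 2 columns hold the largest changes, down to -1.85 for miR-18a to miR-92a.

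The 6 pairs that were not called moved with the setting, so their intervals hold for the arrays taken without regard to slide. MiR-17 to miR-18a changed by 0.02 (95% CI -0.44 to 0.47), miR-19a to miR-20a by 0.15 (-0.40 to 0.69), miR-17 to miR-20a by -0.44 (-0.85 to -0.04), miR-17 to miR-19a by -0.59 (-1.11 to -0.07), miR-18a to miR-20a by -0.46 (-0.92 to 0.01) and miR-19b to miR-92a by -0.37 (-0.77 to 0.03). None of these intervals shows that a pair moved as one, and 3 of these pairs were called once slide was a block. MiR-17 to miR-18a was then 0.66 (limma adjusted p = 0.0245), miR-18a to miR-20a -1.21 (adjusted p = 0.000670), and miR-19a to miR-20a turned to -0.78 (adjusted p = 0.0282). The ratio of miR-17 to miR-18a was 0.69 in LT-HSC and 0.59 on ST-HSC 1, both of slide 2, against -0.61 and -0.30 on ST-HSC 2 and 3, so the ST-HSC arrays split by slide for this pair. Without the LT-HSC array miR-17 to miR-19a was -1.13 (limma adjusted p = 0.00102) and miR-17 to miR-20a -0.70 (adjusted p = 0.00486). MiR-19b to miR-92a stayed uncalled with the block at -0.25, was -0.50 under the 3 other scalings (limma adjusted p from 0.0441 to 0.0535), and on 15 of the 16 arrays lay between -0.37 and 0.65, with LT-HSC apart at -1.02.

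**Figure D4:**
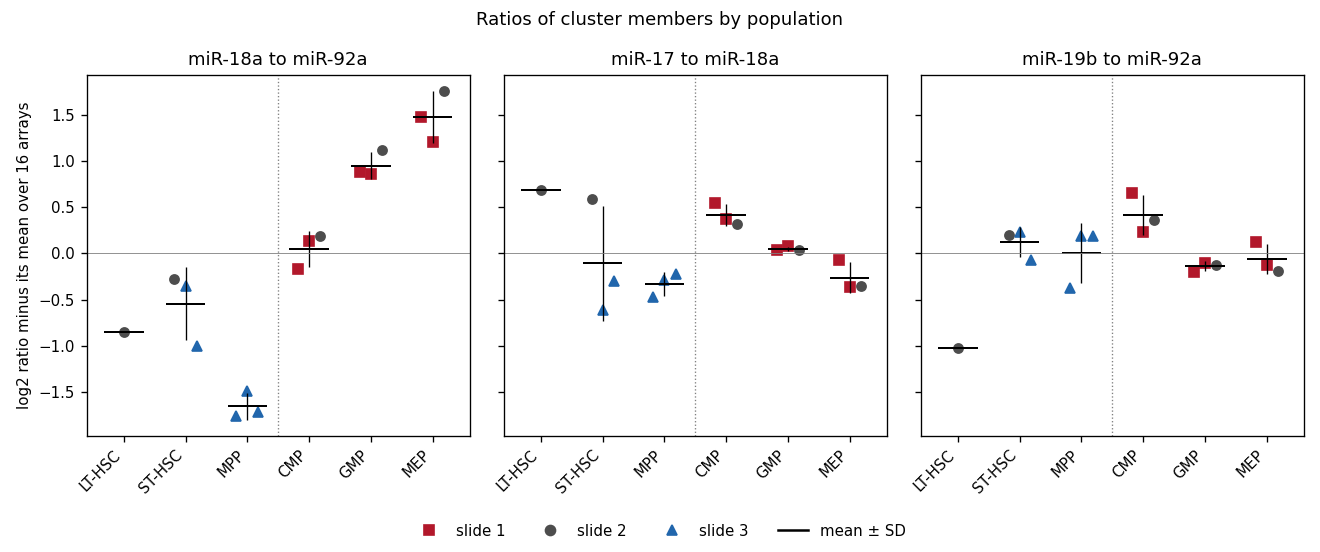
Log2 ratio of 3 pairs of members minus the mean over the 16 arrays (y axis) by population (x axis), with symbols for the slide and lines for the mean and SD. MiR-18a to miR-92a runs from a mean of -1.66 in MPP to 1.48 in MEP, while the other 2 ratios stay between -1.02 and 0.69 and miR-17 to miR-18a parts by slide in ST-HSC.

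CMP and MEP lay on the same slides in the same numbers, and so a comparison of the 2, chosen after seeing the data, is balanced over slides. Of the 15 member pairs 7 changed between CMP and MEP, beside 61.8% of all pairs. For CMP minus MEP, miR-18a to miR-19b changed by -1.91 (95% CI -2.59 to -1.23, limma adjusted p = 0.000164) and miR-18a to miR-92a changed by -1.43 (adjusted p = 0.000959). MiR-19a to miR-19b changed by -1.49 (limma adjusted p = 0.00439), miR-17 to miR-19b by -1.23 (adjusted p = 0.0100), miR-18a to miR-20a by -1.03 (adjusted p = 0.0137), miR-19a to miR-92a by -1.01 (adjusted p = 0.0218) and miR-20a to miR-19b by -0.88 (adjusted p = 0.0473). The last of these was not called with replicate number as a block (limma adjusted p = 0.0553). With slide as a block the values were the same and 10 pairs were called, and with the 3 other scalings 4 were. For single members, CMP exceeded MEP in miR-19b by 1.15 (limma adjusted p = 0.00261) and in miR-92a by 0.67 (adjusted p = 0.0225), and the difference for miR-18a was -0.76 (adjusted p = 0.00139) but 0.074 without normalization. These 3 calls stood beside 64.6% of all tested miRs, and miR-17, miR-19a and miR-20a were not called.

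The 2 probes of a member were then compared. They are nested on the same 3′ bases and were read on the same arrays, so their agreement is not an independent check of a change. For miR-17, miR-18a, miR-19a and miR-20a both probes were called in the same direction, the dimmer ones at -1.43, -1.55, -0.77 and -0.75, and the log2 ratio of the 2 probes varied over the arrays with an SD of 0.085 to 0.243. For miR-92a they parted: the brighter probe rose by 0.49 in HSC subsets (limma adjusted p over probes = 0.0263), whereas the dimmer read 0.07 (95% CI -0.20 to 0.34, adjusted p = 0.669), with an SD of their ratio of 0.355. The probes of miR-19b read 0.12 and -0.07, neither called, with an SD of 0.516. The probes of miR-19b and miR-92a thus parted more than those of the other members, and with the mean of both probes miR-18a to miR-92a still changed by -1.74 and miR-19a to miR-19b by -0.78.

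The paralog clusters repeat the same seeds from other loci. Of their 7 listed miRs 6 were tested, and limma called 4 lower and 0 higher in HSC subsets, beside 22.8% and 25.3% of all tested miRs, while miR-106b (-0.05) and miR-25 (-0.13) were not called. MiR-106a, with the miR-17 seed on chromosome X, changed by -1.55 (limma adjusted p = 1.18e-05), miR-93 by -1.12 (adjusted p = 0.000213) and miR-20b by -0.95 (adjusted p = 9.28e-05). None of these overlapped between the sides, a separation that 2.95% of all tested miRs showed in this direction. These were -0.86, -0.56 and -0.51 with slide as a block and still called. With the LT-HSC array left out as well, miR-20b was -0.34 and no longer called (limma adjusted p = 0.0929). MiR-106b carries the same seed and shares a transcript with miR-93 and miR-25 inside Mcm7, and its level ran from 9.66 in LT-HSC to 10.72 in MPP.

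Calls differed among miRs of the miR-92 seed, whereas their ratios to each other are not given here. MiR-92a was called higher, though neither call nor direction held across settings, and miR-25 was not called. MiR-363 (-0.53, limma adjusted p = 0.0159) and miR-32, which lies outside these clusters (-2.19, adjusted p = 0.00172), were called lower. Both lay near the floor of 1.62 on part of the arrays and were well above background on 11 and 10 of them. MiR-363 stood at the floor on the LT-HSC array, and without that array it read 0.29 (limma adjusted p = 0.121). With slide as a block miR-25 read -0.19, miR-363 -0.08 and miR-32 -0.85, none called, and miR-92a was not called either.

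The other arms of the hairpins, usually the less abundant product, come from the same transcript. Of 6, 5 were on the array and 4 were tested, and 3 of these were lower in HSC subsets, beside 22.8% of all tested miRs: miR-18a* (-0.86, limma adjusted p = 0.000808), miR-20a* (-0.71, adjusted p = 0.00202) and miR-19a* (-1.36, adjusted p = 0.00562). MiR-19a* was well above background on 0 HSC and 4 myeloid arrays, so its size is not firm. MiR-17* read -0.39 (limma adjusted p = 0.101), less than the -1.34 of miR-17 itself, and the difference between them was not tested. MiR-92a* was not tested, being well above background on 0 arrays. Without the LT-HSC array miR-20a* read -0.19 (limma adjusted p = 0.281), and scaled to the 75th percentile of detected probes miR-18a* read -0.17 and miR-20a* -0.12, neither called.

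**Figure D5:**
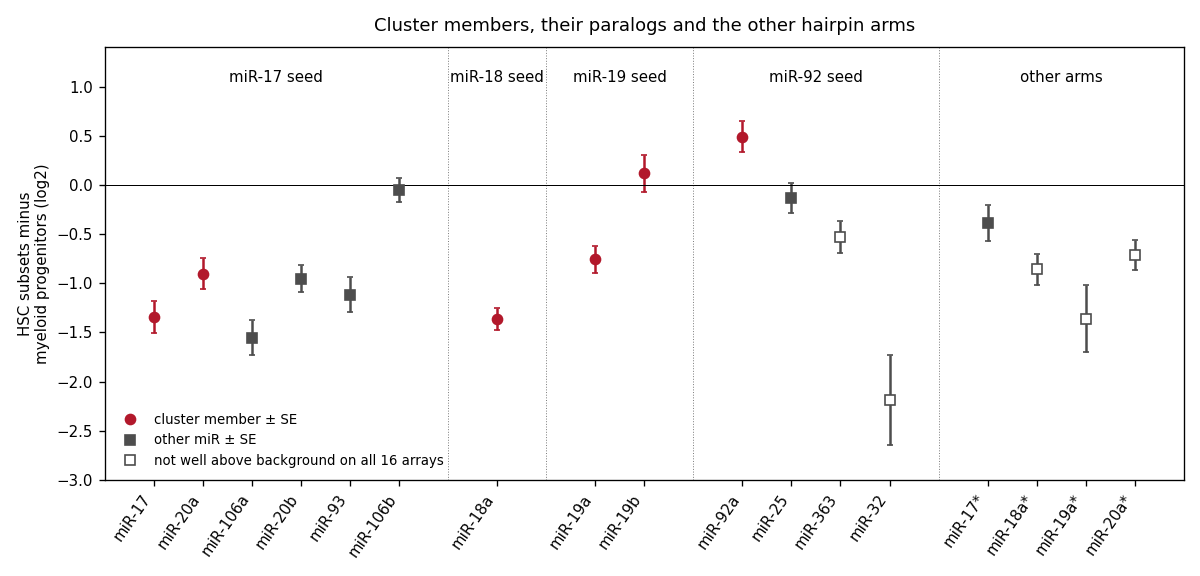
Difference between HSC subsets and myeloid progenitors (y axis, log2, with SE) for the members, the paralogs that share their seeds and the other hairpin arms (x axis). Open symbols were not well above background on all 16 arrays; within the miR-17 seed miR-106b, at -0.05, stood apart from the other 5, and within the miR-92 seed values ran from -2.19 to 0.49.

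Likeness of pattern to each member over the 16 arrays was ranked by the SD of the log2 ratio among the same 105 miRs. Only 6 of these were members, so most miRs near a member are non-members by number alone. The nearest other member ranked 4 for miR-17, 3 for miR-18a, 11 for miR-19a, 9 for miR-20a, 2 for miR-19b and 9 for miR-92a. Named below are the 3 nearest miRs outside the cluster. For miR-17 these were miR-106a (0.167), miR-93 (0.192) and miR-378 (0.363), ahead of miR-18a (0.405). For miR-20a they were miR-20b (0.146), miR-30e (0.291) and miR-148b (0.318), ahead of miR-17 (0.421), and for miR-18a miR-378 (0.359), miR-20b (0.387) and miR-142-5p (0.450), with the member miR-17 between the last 2 of these at 0.405. MiR-106a and miR-20b are the paralogs whose bases under the probe are nearly those of miR-17 and miR-20a, as printed above, and the part of shared binding in these values was not tested.

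For miR-19a the nearest were miR-101b (0.344), miR-142-5p (0.408) and miR-20b (0.422), while its seed partner miR-19b ranked 44 at 0.823. For miR-19b they were miR-26b (0.339), miR-350 (0.443) and miR-15b (0.449), with miR-92a second among all at 0.374. For miR-92a they were let-7g (0.263), miR-26b (0.270) and miR-107 (0.297).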

How the data were processed

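The authors hybridised Cy3-labelled RNA (miRNeasy) to Agilent mouse miR arrays and deposited 1 scanner file per sample, in which the processed signal is a background-subtracted intensity per spot in linear units. They also deposited a table of quantile-normalized log2 values, used here only as an alternative. Array depth is unknown, and the number of arrays limits the precision.

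From the intensities, control spots and spots marked as outliers were left out, spots were averaged per probe, arrays were quantile normalized, values under the floor of 3.07 units were raised to it, and values were put on the log2 scale. Detection (well above background) asked that at least 0.5 of a probe's spots were called by the scanner software. Probes needed this on at least 3 arrays, and the brightest passing probe stood for each miR, giving 237 miRs. Means per population were fitted with limma 3.58.1 (R 4.3.3, lmFit and eBayes), HSC subsets against myeloid progenitors weighted each population equally, and Benjamini-Hochberg adjustment ran over all miRs or all pairs of miRs with a threshold of 0.05. Scripts were tested on simulated data. The members and lists were chosen with earlier results of these data known. Named were all members, their listed paralogs and other arms, and the 3 nearest miRs outside the cluster. Labels give no separate origin beyond the pools, so p-values measure the spread between these arrays.

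Alternatives covered scaling, background, floor, filter, probe summary, spots marked as outliers, an intensity trend, slide and replicate number as blocks, slide 2 alone, the authors' table, exact permutation of arrays and leaving out each array. Titles without a number were read as replicate 3 for CMP, GMP and MEP and as replicate 1 for LT-HSC, ST-HSC and MPP. Among CMP, GMP and MEP all 9 pairs of the same number correlated in their deviations from the population means (0.23 to 0.63). They shared a slide, and arrays of different number on 1 slide correlated too (0.30 to 0.45). On slide 1, which held numbers 1 and 2, pairs of the same number gave 0.23 to 0.48. The numbers are thus not shown to pair arrays beyond the slide. On different slides the same number gave a median of -0.07 over 19 pairs. The LT-HSC array left out together with slide as a block, and the ratios between CMP and MEP, were added after seeing the data.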

Additional observations from a re-analysis of the deposited data

Results flagged for a closer look

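Within the 7 HSC arrays and the 9 myeloid arrays, the highest and lowest array of each member were checked for a wide gap to the next array. Of 12 such groups 2 showed one, and of 30 groups of member ratios 1 did (miR-18a to miR-19a on CMP 3). Chance gives about 1 in 20 for draws from 1 distribution, whereas these groups pool populations. MiR-19a on the LT-HSC array lay at 9.14, below the other HSC arrays at 9.97 to 10.19. MiR-20a on ST-HSC 1 lay at 11.40, above the other HSC arrays at 10.61 to 10.77. Both arrays lay on slide 2, and the part of the slide was not tested for single arrays.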

How the results depend on the processing

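Over all alternatives run, 4 members were called lower in HSC subsets in the main analysis and 3 to 5 in every alternative except slide 2 alone, with 2 HSC and 3 myeloid arrays, where 0 were called by limma and 1 of 6 had an unadjusted p under 0.05 (11 of 237 for all miRs). Leaving out 1 array at a time gave 4 in each case. The count called higher, 1 in the main analysis, was 0 with the 75th percentile of detected or of all probes, without normalization, with the mean of probes, with slide as a block (with or without the LT-HSC array), on slide 2 and by exact permutation (miR-92a, exact permutation adjusted p = 0.0600). It was 2 with each array weighted equally and without the LT-HSC array, and leaving out 1 array gave 1 to 2. The cause was not tested. Members called by the F-test numbered 5 to 6 on leaving out 1 array, 5 without the LT-HSC array. No slide held all populations, so no F-test could be run within 1 slide.

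Ratios called between HSC subsets and myeloid progenitors, 9 in the main analysis, numbered 0 on slide 2 and 9 to 11 on leaving out 1 array. They numbered 7 with slide as a block and without the LT-HSC array, 12 with the mean of probes and 13 with the authors' values. Those called by the F-test numbered 10 to 14 on leaving out 1 array. Ratios between CMP and MEP, 7 called, numbered 4 under the 3 other scalings and 11 with the authors' values, and 5 to 9 on leaving out 1 array. Calls over the pairs of populations, 45, numbered 27 without normalization and 39 to 52 on leaving out 1 array. All tested miRs called lower and higher were 54 and 60, and 41 and 64 with slide as a block, 26 and 32 by exact permutation, and 25 and 27 when the 105 miRs detected on every array were tested alone.

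Directions of called values, or of values called under the alternative, turned as follows, and the cause was not tested. With the 75th percentile of detected probes, miR-363 between the sides was 0.15 and miR-18a for LT-HSC minus MPP 0.63. With that of all probes, between the sides miR-19b was -0.66 and miR-92a -0.16, for LT-HSC minus MPP miR-20a -1.42, for LT-HSC minus GMP miR-92a -1.68, for MPP minus MEP miR-19a 0.011, and for GMP minus MEP miR-18a 0.82 and miR-19a 0.80. Without normalization, between the sides miR-19b was -1.17 and miR-92a -0.68, for LT-HSC minus MPP miR-17 -1.30 and miR-20a -2.84, for LT-HSC minus GMP miR-92a -3.06, for MPP minus MEP miR-19a 0.093, and for CMP minus MEP miR-18a 0.074. With slide as a block, the ratio of miR-19a to miR-20a was -0.78, miR-20a for LT-HSC minus MPP -0.64 and miR-20a for MPP minus MEP 0.17. On leaving out 1 array miR-363 between the sides ranged from -0.62 to 0.29, the highest without the LT-HSC array, and with slide as a block as well miR-363 was 0.97, miR-20a* 0.067, miR-32 0.46 and miR-20a for MPP minus MEP 0.16.

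Values called under neither setting also turned, among them miR-19b between the sides (-0.11 with the 75th percentile of detected probes and -0.23 on slide 2) and the ratio of miR-17 to miR-19a (0.23 with slide as a block and 0.44 on slide 2).

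With replicate number as a block, 4 members were lower and 1 higher as before, 10 ratios changed between the sides, 6 between CMP and MEP, and 42 calls were made over the pairs of populations. Calls lost with this block between myeloid progenitors were miR-18a for CMP minus GMP and the ratio of miR-20a to miR-19b for CMP minus MEP.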
